A study of Homo sapiens with 6 samples.

Results

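Matrix metalloproteases are zinc-dependent enzymes that cut collagens, laminins and other proteins of the extracellular matrix and the cell surface, and the tissue inhibitors of metalloproteases (TIMPs) bind and block them. Most matrix metalloproteases are made as inactive proenzymes. At the cell surface the membrane-anchored enzyme MMP14 can hold TIMP2, and this complex receives and activates pro-MMP2, so TIMP2 is both an inhibitor and a partner in activation. In carcinomas these genes are studied for their part in invasion and metastasis. The 10 genes described here, 7 metalloproteases (MMP1, MMP2, MMP3, MMP9, MMP14, MMP15 and MMP24) and 3 inhibitors (TIMP1, TIMP2 and TIMP3), were taken by symbol from a table of 42656 genes, and all 10 symbols were found there.

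The data are messenger RNA counts from TOV21G, an established line from an ovarian clear cell carcinoma. Cells of the shMEX3A arm received a lentiviral short hairpin RNA against MEX3A, an RNA-binding protein, and cells of the shCtrl arm, labelled WT, received a scrambled hairpin, with 3 libraries in each arm. Both arms grew in medium with 15% serum, took up virus at a multiplicity of infection of 50 and were collected on day 3, and each arm rests on 1 hairpin in 1 cell line. Whether replicate libraries stem from independent cultures is not stated, so every p-value here reflects only how far these libraries spread, which may be technical.

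Totals ran from 34662635 to 48228216 counts per library. MEX3A stood at 19.6, 21.0 and 22.2 CPM (counts scaled to a common library total) in the shMEX3A libraries, against 68.8, 70.7 and 67.6 CPM in the shCtrl libraries, and the arms did not overlap. Of the 13 markers of clear cell carcinoma and epithelium, 12 were tested and SOX17 was at 0, with a summed level of 1240 to 1269 CPM in shMEX3A and 1452 to 1491 CPM in shCtrl. Of these, 6 rose, PAX8, KRT8 and KRT18 among them, and 4 fell, and the lower sum went with ANXA4, at 214 ± 5.65 CPM in shMEX3A and 652 ± 19.0 CPM in shCtrl (SD, n = 3 each). ESR1 and PGR, which are usually low in this carcinoma, had 0 counts in all 6 libraries. WT1, also listed as usually low, was detected in every library and not called. It had 29, 44 and 13 counts in shMEX3A, against 21, 36 and 22 counts in shCtrl. At most 10 counts in any library were found for 7 of 10 fibroblast markers (PDGFRA among them), 9 of 12 leukocyte markers (PTPRC among them), 5 of 10 endothelial markers and 7 of 8 neutrophil markers, and KDR and ELANE were at 0. The summed fibroblast list was at 9.87 to 12.6 CPM in shMEX3A and 6.04 to 6.69 CPM in shCtrl, the leukocyte list at 10.9 to 11.3 CPM in shMEX3A and 7.75 to 8.86 CPM in shCtrl, and the endothelial list at 10.9 to 11.7 CPM in shMEX3A and 8.10 to 8.48 CPM in shCtrl. The neutrophil list was at 0.149 to 1.16 CPM in shMEX3A and 0.141 to 0.686 CPM in shCtrl. Of 3 tested fibroblast genes 2 rose and 0 fell, and 2 of 2 tested leukocyte genes rose. The leukocyte marker CD68 was at 8.48, 8.60 and 8.32 CPM in shMEX3A, against 6.68, 7.67 and 6.86 CPM in shCtrl. ITGAM, of the same list, was at 1.89, 2.17 and 1.98 CPM in shMEX3A, against 0.572, 0.508 and 0.898 CPM in shCtrl. The fibroblast marker DCN had 413, 391 and 302 counts in shMEX3A, against 206, 180 and 192 counts in shCtrl. In the endothelial list 2 genes rose, TIE1 among them (9.83 ± 0.535 CPM in shMEX3A and 4.41 ± 0.034 CPM in shCtrl), and 2 fell, FLT1 (0.593 ± 0.206 CPM in shMEX3A and 2.77 ± 0.214 CPM in shCtrl) and ERG. The part of these lists in the results was not tested. In RNA from a whole culture, fewer cells of a type and less RNA per cell cannot be told apart.

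Of the 10 genes, 7 had enough counts to test and 3 (MMP3, MMP9 and TIMP3) were too weak. Among the 7, TIMP2 and MMP24 fell in shMEX3A, MMP14 rose (a call that was lost with offsets for GC content and transcript length), and MMP1, MMP2, MMP15 and TIMP1 were not called at an adjusted p of 0.05 (edgeR quasi-likelihood test). Thus 3 of 7 were called, where 69.7% of all 15679 tested genes were called, 34.0% higher and 35.6% lower. The arms did not overlap in 4 of the 7, against 72.3% of all tested genes. The median log2 fold change was -0.01 over the 7 and -0.01 over all tested genes.

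**Figure D1:**
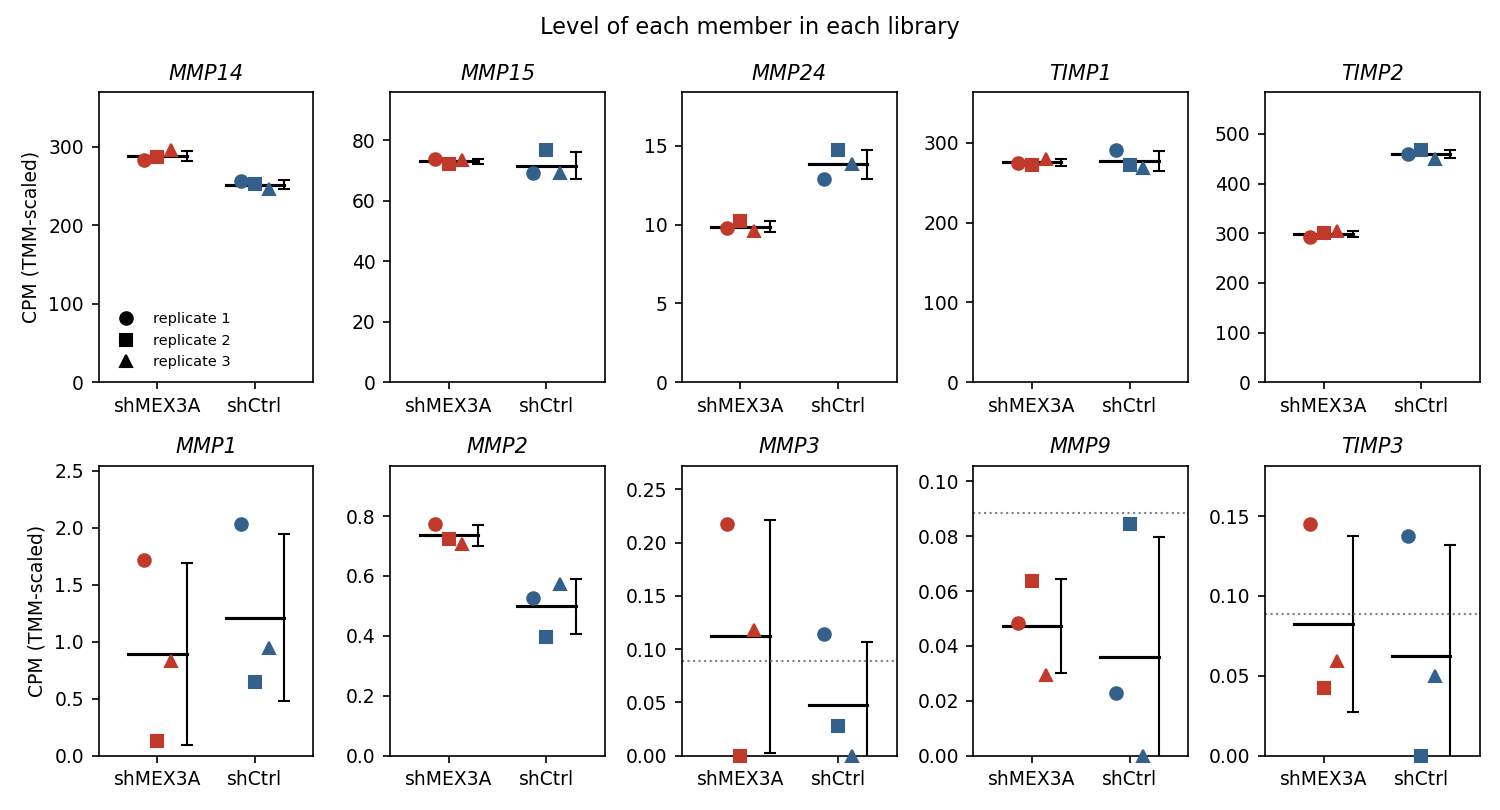
Level of each gene in each library in TMM-scaled CPM on linear axes from 0, with shMEX3A left of shCtrl, symbols for the replicate number, the mean as a line and the SD over 3 libraries as a bar, cut off at 0. The dotted line is the level of 3 counts in the library where that level is highest (0.0885 CPM). TIMP2 and MMP24 are lower and MMP14 is higher in all 3 shMEX3A libraries (its fold change is near 0 with GC and length offsets), and MMP1 spreads widely within both arms.

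TIMP2 was the member with the largest called difference. It is the inhibitor that also takes part in pro-MMP2 activation. It stood at 293, 300 and 304 CPM in the shMEX3A libraries, against 460, 468 and 451 CPM in the shCtrl libraries. Each shMEX3A library lay far below each shCtrl library. The means were 299 ± 5.96 CPM in shMEX3A and 459 ± 8.56 CPM in shCtrl (SD, n = 3 each), a 1.54-fold lower level in shMEX3A (log2 fold change -0.62, SE 0.030, adjusted p = 1.47e-20). Of all tested genes 28.0% had a larger absolute log2 fold change. TIMP2 is on the minus strand of chromosome 17 from 78852977 to 78925387 (GRCh38, GENCODE 29). CEP295NL, on the same strand, shares 3.52% of the exon bases of TIMP2 and averaged 0.542 CPM in shMEX3A and 0.169 CPM in shCtrl, a level small beside that of TIMP2. AC022966.1, on the opposite strand, covers 6.515% of these bases. It was not among the counted genes under that name, so its level is not known.

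The tested genes outside the 10 whose pattern over the 6 libraries lay nearest to TIMP2 were LRRC75B, MERTK and ACTG1. The measure was the Euclidean distance between mean-centred log2 CPM, which was 0.024 for LRRC75B, 0.029 for the receptor tyrosine kinase gene MERTK and 0.034 for ACTG1, the gene of gamma-actin. MERTK averaged 72.6 ± 1.26 CPM in shMEX3A and 112 ± 1.66 CPM in shCtrl (SD, n = 3 each). With 2 arms, such a distance mostly compares the size of the difference between them.

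TIMP1, a secreted inhibitor that acts weakly on several membrane-anchored metalloproteases, did not follow TIMP2. It stood at 274, 272 and 280 CPM in the shMEX3A libraries, against 291, 272 and 268 CPM in the shCtrl libraries, and the arms overlapped. Its log2 fold change was -0.01 with a 95% interval of -0.07 to 0.05 (adjusted p = 0.799, edgeR quasi-likelihood test), so the interval leaves room for a change of a few percent in either direction. TIMP1 lies on the X chromosome from 47582313 to 47586789 on the plus strand. None of its exon bases lie under exons of another gene.

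TIMP3, an inhibitor that binds to the matrix and also blocks ADAM proteases, was too weak to test. It had 6, 2 and 2 counts in the shMEX3A libraries, against 6, 0 and 2 counts in the shCtrl libraries. The arm totals were 10 counts in shMEX3A (exact 95% Poisson interval 4.80 to 18.4) and 8 counts in shCtrl (3.45 to 15.8), intervals that cover counting error only. The intervals overlapped widely, and no difference was detectable at this depth.

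MMP14, a membrane-anchored collagenase, was the most abundant of the 7 metalloproteases and the only one of the 10 genes that rose, although not with offsets for GC content and length. It stood at 284, 287 and 296 CPM in the shMEX3A libraries, against 257, 252 and 246 CPM in the shCtrl libraries. The arms did not overlap, and the difference was small. The means were 289 ± 6.42 CPM in shMEX3A and 252 ± 5.47 CPM in shCtrl (SD, n = 3 each), a 1.15-fold higher level in shMEX3A (log2 fold change 0.20, SE 0.030, adjusted p = 3.57e-07). Of all tested genes 69.2% had a larger absolute log2 fold change. The rise depended on the processing. Offsets for GC content and transcript length brought it to -0.0024 (adjusted p = 0.938, edgeR quasi-likelihood test), while the same genes without offsets gave 0.22. The transcript of MMP14 has a GC content of 58.9%. Its position is chromosome 14, 22836557 to 22849027, plus strand, with no exon bases under another gene's exons.

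MMP15, another membrane-anchored enzyme that can activate pro-MMP2, stood at 73.8, 72.0 and 73.3 CPM in the shMEX3A libraries, against 69.0, 76.8 and 69.1 CPM in the shCtrl libraries. The shMEX3A values lay inside the range of the shCtrl values. Its log2 fold change was 0.03 with a 95% interval of -0.05 to 0.11 (adjusted p = 0.516, edgeR quasi-likelihood test). With GC and length offsets it was called lower, at -0.22 (adjusted p = 1.42e-06), and its transcript has the highest GC content of the 10 genes, 66.0%. MMP15 lies on chromosome 16 from 58025566 to 58046901.

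MMP24, a membrane-anchored enzyme studied mostly in the nervous system, fell. It stood at 9.81, 10.3 and 9.56 CPM in the shMEX3A libraries, against 12.9, 14.7 and 13.9 CPM in the shCtrl libraries. The highest shMEX3A library lay below the lowest shCtrl library. The means were 9.87 ± 0.353 CPM in shMEX3A and 13.8 ± 0.925 CPM in shCtrl (SD, n = 3 each), a 1.39-fold lower level in shMEX3A (log2 fold change -0.48, SE 0.073, adjusted p = 3.4e-07), and offsets for GC and length gave -0.72. It is on chromosome 20, 35226654 to 35277000, plus strand. MMP24OS, on the opposite strand, covers 18.1% of its exon bases and went the other way, with 17.2 ± 0.554 CPM in shMEX3A and 10.9 ± 0.234 CPM in shCtrl (log2 fold change 0.67, SE 0.066). AL121753.2, also on the opposite strand, covers 3.67% of the exon bases of MMP24 and was not among the counted genes under that name. The strand setting of the counting is not given in the sources used here, so reads from the shared bases cannot be assigned to any of these genes with certainty.

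**Figure D2:**
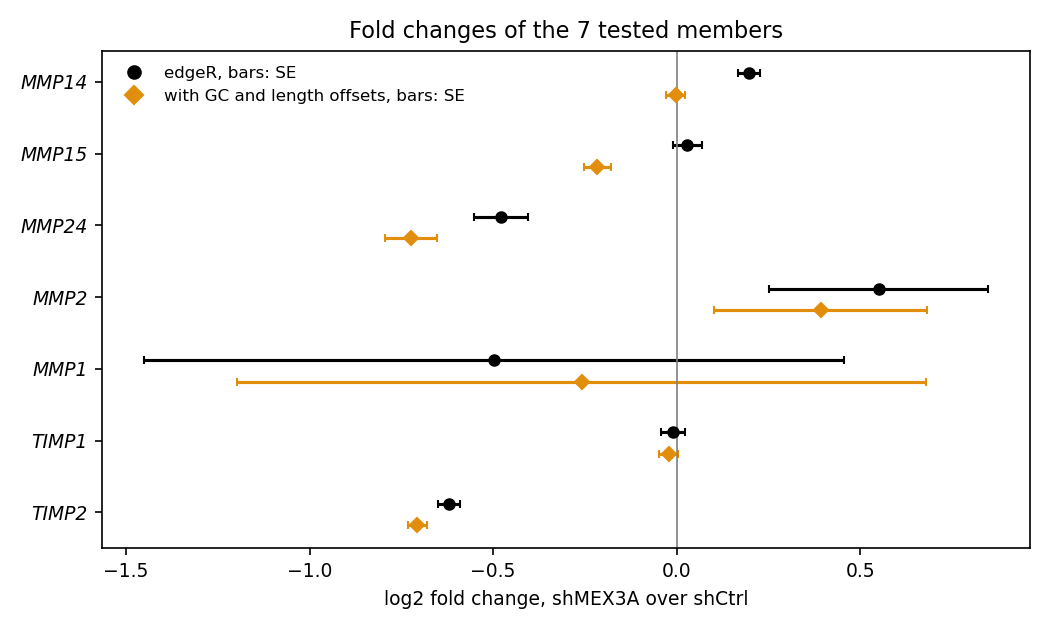
Log2 fold change, shMEX3A over shCtrl, of the 7 tested genes from the edgeR test (black circles) and with offsets for GC content and transcript length (orange diamonds). Bars are standard errors. TIMP2 and MMP24 lie below 0 in both, MMP14 is at 0.20 without offsets and near 0 with them, and MMP1 has a standard error of 0.95.

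The secreted enzymes among the 10 genes were weak in these cells. MMP2, the gelatinase that MMP14 activates, had 32, 34 and 24 counts in the shMEX3A libraries, against 23, 14 and 23 counts in the shCtrl libraries. As scaled levels these were 0.775, 0.722 and 0.708 CPM in shMEX3A, against 0.526, 0.395 and 0.574 CPM in shCtrl. The arms did not overlap, but the gene was not called (log2 fold change 0.55, SE 0.30, 95% interval -0.05 to 1.15, adjusted p = 0.0976, edgeR quasi-likelihood test). With each library left out in turn the log2 fold change ran from 0.42 to 0.65 and the adjusted p from 0.110 to 0.269 (edgeR). MMP2 is on chromosome 16 from 55389700 to 55506691.

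MMP3, a stromelysin that can activate other proenzymes, had 9, 0 and 4 counts in the shMEX3A libraries, against 5, 1 and 0 counts in the shCtrl libraries. MMP9, the other gelatinase, had 2, 3 and 1 counts in shMEX3A, against 1, 3 and 0 counts in shCtrl. Neither passed the low-count filter. Without that filter the log2 fold change was 1.08 for MMP3 (SE 0.95, adjusted p = 0.398) and 0.46 for MMP9 (SE 1.23, adjusted p = 0.792, edgeR quasi-likelihood test). A level of 3 counts corresponds to 0.0637 to 0.0885 CPM in these libraries, and MMP9 was at or under 3 counts in all 6. MMP3 is on chromosome 11 from 102835801 to 102843803 and MMP9 on chromosome 20 from 46008908 to 46016561. SLC12A5-AS1, on the opposite strand, covers 18.4% of the exon bases of MMP9.

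MMP1, the interstitial collagenase, varied more within each arm than between the arms. It had 71, 6 and 28 counts in the shMEX3A libraries, against 89, 23 and 38 counts in the shCtrl libraries. As scaled levels these were 1.72, 0.127 and 0.826 CPM in shMEX3A, against 2.04, 0.649 and 0.948 CPM in shCtrl. In both arms replicate 1 was highest and replicate 2 lowest. The highest library exceeded the lowest 13.5-fold in shMEX3A and 3.14-fold in shCtrl. Measured against counting error alone, the chi-square per degree of freedom was 32.5 in shMEX3A and 17.3 in shCtrl, while it was 0.0667 and 0.634 for MMP2. This measure grows with the number of counts. The far more abundant TIMP1 reached 22.3 in shCtrl, where its highest library exceeded its lowest only 1.09-fold. MMP1 was not called (log2 fold change -0.50, SE 0.95, 95% interval -3.10 to 2.10, adjusted p = 0.676, edgeR quasi-likelihood test). Without shCtrl replicate 1 the log2 fold change was 0.12 and without shMEX3A replicate 2 it was 0.07, so its direction rested on these libraries. MMP1 is on the minus strand of chromosome 11, from 102789920 to 102798160, and WTAPP1 on the opposite strand covers 7.61% of its exon bases.

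By the same distance as for TIMP2, the genes nearest to MMP1 over the 6 libraries were S100A9, CALML3 and KRT5, named here after their values were seen. Their distances were 1.10, 1.14 and 1.46, far larger than the 0.0235 to 0.0335 of the genes nearest to TIMP2. The next nearest were REM2 (1.51) and FAM184A (1.57), which are not in the squamous list described below. S100A9, a calcium-binding protein of myeloid cells and squamous epithelium, stood at 1.04, 0.0212 and 0.266 CPM in shMEX3A, against 0.549, 0.113 and 0.399 CPM in shCtrl. KRT5, a keratin of basal squamous epithelium, stood at 7.87, 0.488 and 1.95 CPM in shMEX3A, against 2.97, 0.987 and 3.19 CPM in shCtrl. Both were lowest in replicate 2 of each arm, as MMP1 was. In a list of 18 squamous epithelial genes drawn up after this was seen, 1, 4 and 1 genes were at 0 counts in the shMEX3A libraries, against 0, 4 and 2 in the shCtrl libraries. KRT6A, another keratin of that list, had 200, 26 and 59 counts in shMEX3A, against 132, 17 and 84 counts in shCtrl. Over the whole list, 10 of 18 genes were lowest in replicate 2 of both arms, and 7 of the 10 that were tested. Both counts include KRT5, S100A9 and CALML3, which had been picked for their nearness to MMP1. The tally therefore only describes the list, and the share among all tested genes was not determined. Others did not follow MMP1. SFN was lowest in replicate 1 in shMEX3A and in replicate 3 in shCtrl, and LGALS7 stood at 1.94, 2.04 and 2.21 CPM in shMEX3A, against 3.18, 2.85 and 3.02 CPM in shCtrl. The summed level of the list was 78.9, 59.9 and 64.1 CPM in shMEX3A, against 105, 93.7 and 99.7 CPM in shCtrl, and most of it was SFN, which was at 50.6 to 54.0 CPM in shMEX3A and 85.6 to 90.4 CPM in shCtrl. The part of these genes in the spread of MMP1 was not tested.

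**Figure D3:**
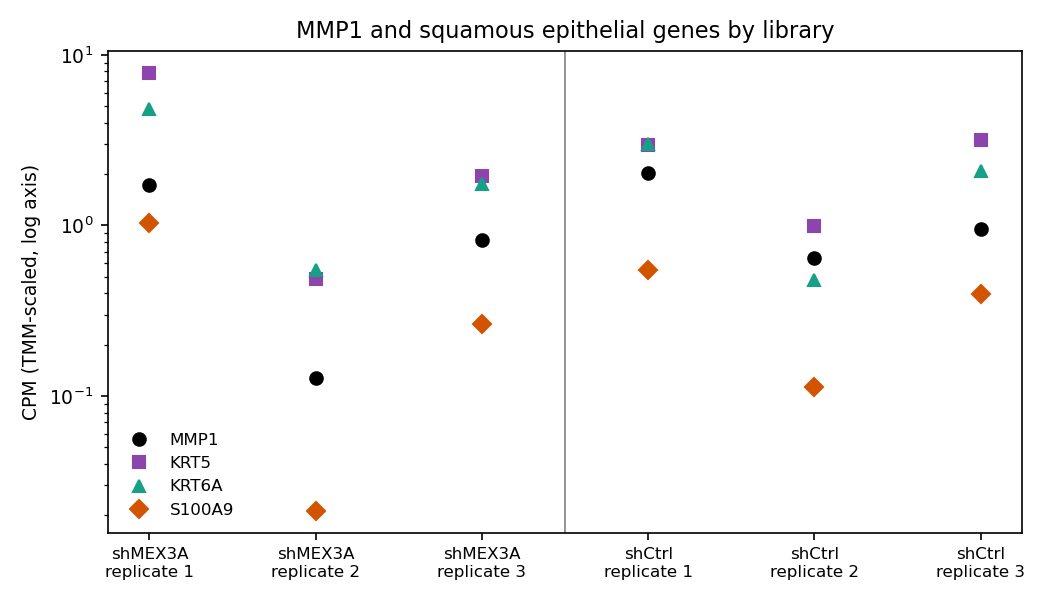
Levels of MMP1 and of the squamous epithelial genes KRT5, KRT6A and S100A9 in each library, in TMM-scaled CPM on a log axis, with shMEX3A left of shCtrl. All 4 genes are lowest in replicate 2 of each arm, at 0.127 CPM in shMEX3A and 0.649 CPM in shCtrl for MMP1, and they were chosen after this was seen.

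Between genes, levels were compared as CPM per kilobase of exon. In shMEX3A the order was TIMP1 (179 ± 2.79), MMP14 (64.7 ± 1.44), TIMP2 (53.1 ± 1.06), MMP15 (16.5 ± 0.204), MMP24 (2.24 ± 0.080), MMP1 (0.452 ± 0.405) and MMP2 (0.149 ± 0.00715), as mean CPM per kilobase ± SD over 3 libraries. In shCtrl TIMP2 (81.6 ± 1.52) stood above MMP14 (56.4 ± 1.23), and the order of the others was the same. MMP1 and MMP2 overlapped in shMEX3A, and all other neighbours in the 2 orders were apart in every library. By this level TIMP1 lay above 99.1% of the 13828 tested genes with a known length, TIMP2 above 96.5%, MMP14 above 95.9%, MMP15 above 80.9%, MMP24 above 36.9%, MMP1 above 15.7% and MMP2 above 4.92%. The change of place between TIMP2 and MMP14 depended on the length used. With the longest coding transcript in place of all exons, TIMP2 was above MMP14 in both arms, at 81.9 against 77.4 CPM per kilobase in shMEX3A.

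The ratio of MMP14 to TIMP2, as levels per kilobase, was 1.22, 1.21 and 1.23 in the shMEX3A libraries, against 0.706, 0.680 and 0.690 in the shCtrl libraries. The libraries of an arm lay close together and the arms were far apart. MMP14 made up 76.9% ± 0.790 of the summed level of the 7 metalloproteases in shMEX3A and 73.7% ± 0.896 in shCtrl (SD, n = 3 each). TIMP2 made up 22.9% ± 0.292 of the summed level of the 3 inhibitors in shMEX3A and 31.2% ± 0.918 in shCtrl, with nearly all of the rest being TIMP1. The summed metalloproteases stood to the summed inhibitors as 0.363 ± 0.000719 in shMEX3A and as 0.293 ± 0.00648 in shCtrl. These ratios concern messenger RNA and are descriptions with no test.

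**Figure D4:**
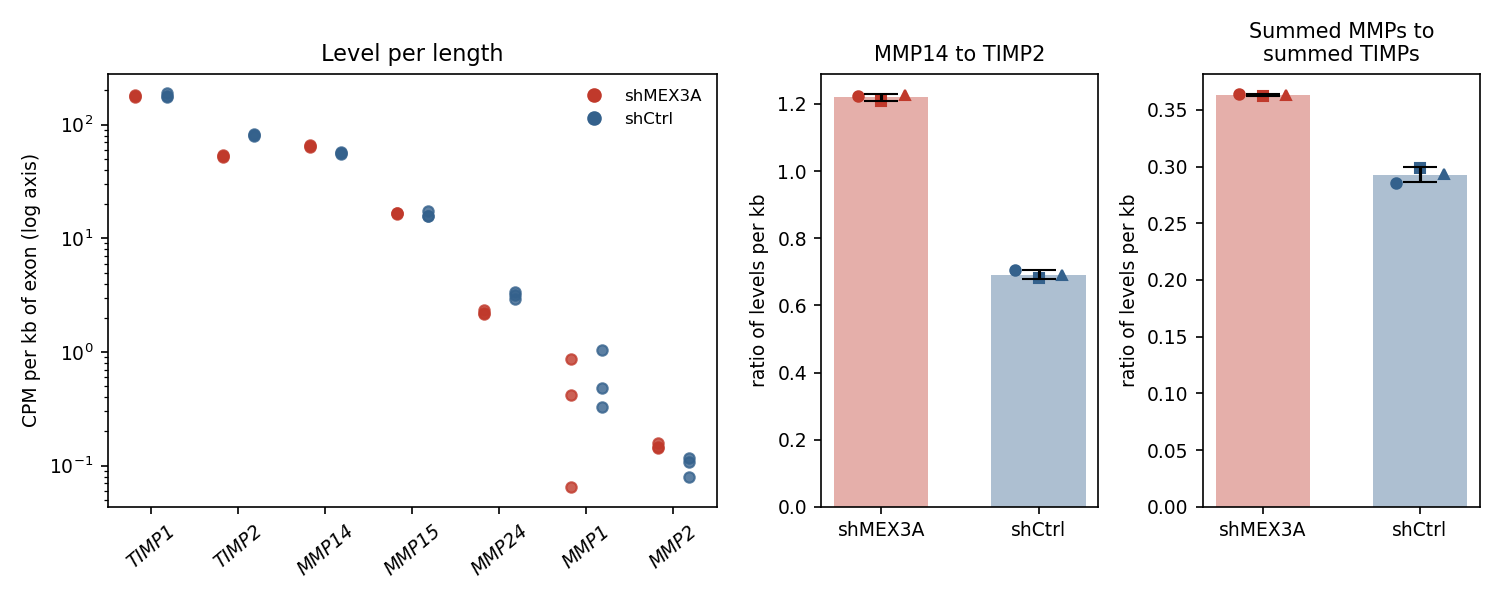
Left, levels per kilobase of exon of the 7 tested genes in each library on a log axis. Right, the ratio of MMP14 to TIMP2 and of the summed metalloproteases to the summed inhibitors, as levels per kilobase, with bars at the mean from 0, SD over 3 libraries and a point for each library. The MMP14 to TIMP2 ratio averages 1.22 in shMEX3A and 0.692 in shCtrl.

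Promoter sequences from RefSeq (GRCh38.p14) were on hand for 5 of the 10 genes, MMP14, MMP15, MMP24, TIMP1 and TIMP3. The 250 bases before the RefSeq start of transcription are shown for 3 of them, since MMP14 rose, MMP24 fell and TIMP1 was not called. Capitals mark TGAGTAA, the AP-1 element described for TIMP1, and the ETS core GGAA on either strand (TTCC on the strand shown).
MMP14 promoter, chr14:22836335-22836584, plus strand: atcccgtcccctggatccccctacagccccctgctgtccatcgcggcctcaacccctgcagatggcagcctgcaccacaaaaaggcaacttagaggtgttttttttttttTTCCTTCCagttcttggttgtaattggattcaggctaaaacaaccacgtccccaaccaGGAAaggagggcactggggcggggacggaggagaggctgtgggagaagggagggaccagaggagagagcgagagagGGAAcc
MMP24 promoter, chr20:35226440-35226689, plus strand: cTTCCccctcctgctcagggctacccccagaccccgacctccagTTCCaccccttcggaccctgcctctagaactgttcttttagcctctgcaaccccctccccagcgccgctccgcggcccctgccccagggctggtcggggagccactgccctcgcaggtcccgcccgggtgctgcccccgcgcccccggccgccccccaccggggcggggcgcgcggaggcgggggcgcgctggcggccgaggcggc
TIMP1 promoter, chrX:47582186-47582435, plus strand: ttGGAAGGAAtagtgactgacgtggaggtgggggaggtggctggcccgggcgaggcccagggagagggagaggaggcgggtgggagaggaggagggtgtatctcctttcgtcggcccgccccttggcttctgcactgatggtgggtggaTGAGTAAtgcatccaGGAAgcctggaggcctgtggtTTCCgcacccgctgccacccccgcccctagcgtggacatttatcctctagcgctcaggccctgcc

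The AP-1 consensus TGANTCA was in none of the 5 promoters on either strand, and 6.57% of the 35116 promoters of the table hold it in the same window. The variant TGAGTAA, added after the sequences were seen, was found in TIMP1 alone, from base -101 to -95 before the start, and in 2.21% of all promoters. A GGAA core follows it in TIMP1, from base -86 to -83. The GGAA core was present in all 5 and in 92.7% of all promoters, and the GC box GGGCGG was also present in all 5 and in 42.6% of all. The TATA box TATAAA was in none of the 5 and in 10.7% of all. No matches of different motifs overlapped. A match of letters is not a measure of binding.

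Of the other 17 genes of the family, 5 were tested, 6 were at 0 in every library and the other 6 had too few counts. Among the 5, MMP11 and MMP17 rose, MMP16 and MMP19 fell and MMP7 was not called, so 4 of 5 were called beside 69.7% of all tested genes. The median log2 fold change of the 5 was 0.59, beside -0.01 over all tested genes. MMP16, a membrane-anchored relative of MMP14, had 8.69, 9.09 and 7.32 CPM in the shMEX3A libraries, against 22.6, 22.7 and 23.1 CPM in the shCtrl libraries. Its fall was the largest in the family (log2 fold change -1.44, SE 0.070, adjusted p = 2.72e-20). MMP11, a stromelysin that is cut to its active form inside the cell by furin, had 38.1, 39.9 and 40.3 CPM in shMEX3A, against 21.0, 23.0 and 22.8 CPM in shCtrl (log2 fold change 0.83, SE 0.051). MMP17, a glycolipid-anchored enzyme, rose by 0.59 (SE 0.093) and MMP19 fell by 0.72 (SE 0.086) on the log2 scale.

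MMP7, matrilysin, had 0.823, 0.743 and 0.413 CPM in shMEX3A, against 0.435, 0.508 and 0.274 CPM in shCtrl, and just missed the threshold (log2 fold change 0.73, adjusted p = 0.0520, edgeR quasi-likelihood test). In edgeR it was called with GC and length offsets (1.02, adjusted p = 0.00564) and on the same genes without offsets (adjusted p = 0.0364). It was also called with DESeq2 size factors (0.0486), without shCtrl replicate 2 (0.0457) and without shMEX3A replicate 3 (0.0220). Under the other settings that tested it, MMP7 was not called. The edgeR adjusted p was 0.24 without shCtrl replicate 3, 0.22 without shMEX3A replicate 1 and 0.17 without shMEX3A replicate 2. DESeq2 gave an adjusted p of 0.12. The genes at 0 were MMP8, MMP12, MMP13, MMP20, MMP26 and MMP27. The weak ones were MMP10, MMP21, MMP23B, MMP25, MMP28 and TIMP4, each with at most 9 counts in a library. MMP23B had 22 counts in shMEX3A and 3 in shCtrl. Without the low-count filter it was called higher (2.68 on the log2 scale, with an edgeR adjusted p of 0.0133). This makes 3 rises among these other family members, MMP14 not included. It has a near-identical copy, MMP23A, and how the counting treated reads that match both is not given, so its value is uncertain.

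The activators and regulators of these enzymes changed in both directions. Of 22 listed, 20 were tested, 9 rose and 8 fell. Their median log2 fold change was 0.07, and 69.7% of all tested genes were called. FURIN, the convertase that cuts the propeptide of membrane-anchored metalloproteases such as MMP14, had 176, 176 and 183 CPM in the shMEX3A libraries, against 81.1, 85.2 and 81.5 CPM in the shCtrl libraries. Its level was thus higher in all 3 libraries (log2 fold change 1.11, SE 0.034, adjusted p = 8.77e-27). The urokinase gene PLAU, whose product makes plasmin, rose by 1.13 (SE 0.029) on the log2 scale. TFPI2, a protease inhibitor of the matrix, was at 595, 603 and 616 CPM in shMEX3A, against 72.2, 68.9 and 66.0 CPM in shCtrl.

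BSG, which encodes basigin, a surface protein known for inducing metalloproteases in neighbouring cells, fell. It had 282, 295 and 304 CPM in the shMEX3A libraries, against 915, 898 and 858 CPM in the shCtrl libraries (log2 fold change -1.60, SE 0.032, adjusted p = 5.85e-32). The convertase PCSK5 fell by 0.79, the secreted thrombospondin THBS1 by 0.52 and the tetraspanin CD151 by 0.45 on the log2 scale. RECK, a membrane-anchored inhibitor of several metalloproteases, was not called. It had 12.1, 11.8 and 11.8 CPM in shMEX3A, against 10.3, 10.9 and 12.1 CPM in shCtrl. PLG, the gene of plasminogen, and A2M, a protease inhibitor of plasma, were at 0 in every library.

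Of 22 substrates listed, 20 were tested, 12 rose and 7 fell. Over all tested genes 69.7% were called, 34.0% higher and 35.6% lower. The median of the 20 log2 fold changes was 0.46, beside -0.01 over all tested genes. Those with the smallest p among the rises were the collagen chains COL1A1, COL1A2 and COL4A2 and the matrix glycoprotein TNC. COL4A2, a basement membrane collagen, averaged 1602 ± 60.7 CPM in shMEX3A and 802 ± 30.3 CPM in shCtrl (SD, n = 3 each). Among the falls were the laminin chain LAMC1, the proteoglycan VCAN and the cadherin CDH1. VCAN, versican, averaged 682 ± 10.4 CPM in shMEX3A and 961 ± 21.0 CPM in shCtrl (log2 fold change -0.49, SE 0.029). CDH1, E-cadherin, averaged 1.59 ± 0.310 CPM in shMEX3A and 4.23 ± 0.428 CPM in shCtrl.

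Transcription factors of the AP-1 and ETS families are known to bind promoters of several metalloproteases. Of 16 listed, 14 were tested, 11 rose and 2 fell, where 34.0% of all tested genes rose and 35.6% fell. The median of the 14 log2 fold changes was 0.69, beside -0.01 over all tested genes. FOSL1 had 88.5, 92.8 and 92.0 CPM in the shMEX3A libraries, against 31.3, 29.1 and 29.3 CPM in the shCtrl libraries. JUN averaged 69.5 ± 1.38 CPM in shMEX3A and 36.5 ± 0.526 CPM in shCtrl (log2 fold change 0.93, SE 0.040), while ETV4 rose by 0.92 and ELK3 by 1.22 on the log2 scale. ETS2 fell by 0.60 and ETV1 by 0.67. Without shMEX3A replicate 1, 4 fell in place of 2, with ATF3 (log2 fold change -0.27, adjusted p = 0.0286, edgeR quasi-likelihood test) and BATF3 added, the last of which had too few counts to be tested with all 6 libraries.

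**Figure D5:**
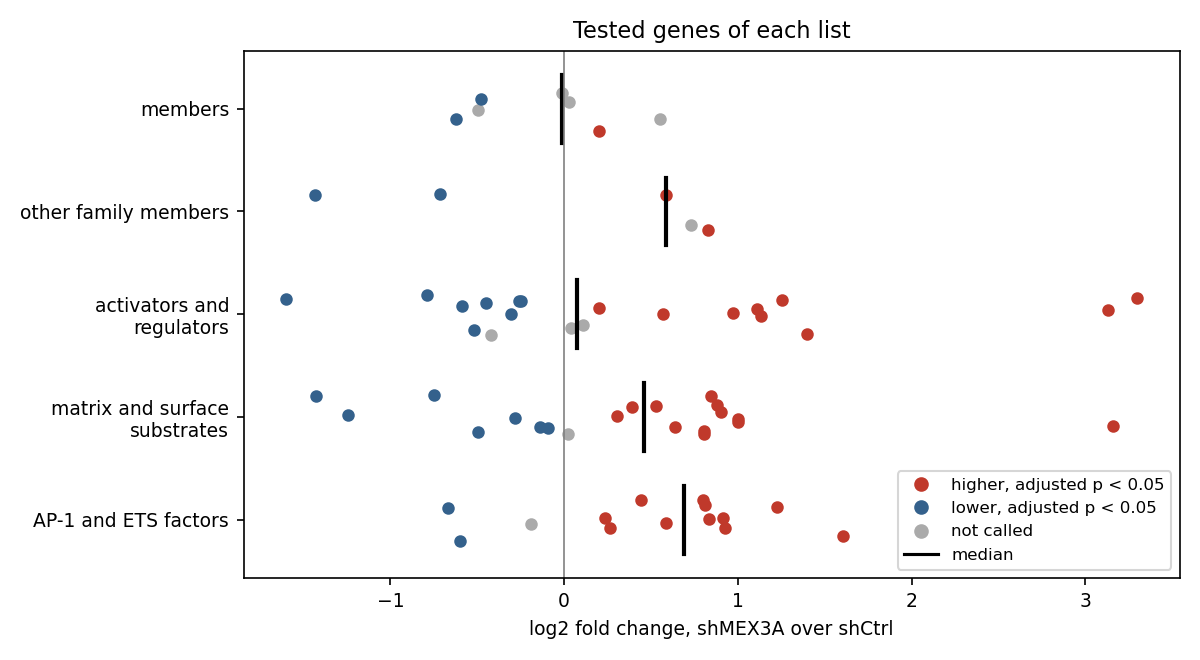
Log2 fold change, shMEX3A over shCtrl, of the tested genes in each list, with the median of the list as a black bar and colour for the call at an adjusted p of 0.05. Vertical scatter within a list only separates the points. The medians are -0.01 for the 7 metalloproteases and inhibitors, 0.59 for the 5 other family members, 0.07 for the 20 regulators, 0.46 for the 20 substrates and 0.69 for the 14 factors.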

How the data were processed

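The authors deposited raw read counts per gene for 6 libraries of TOV21G cells. The submitters' processing notes name GRCh38 as the build and list HTSeq 2.0.4, edgeR 4.0.16, STAR and fastp 0.20.0 without roles. For the STAR version, gene annotation and strand setting, the entry is: not given in the sources used here. From the deposited counts, 15679 genes that passed filterByExpr were tested with edgeR 4.0.16 in R 4.3.3 (TMM scaling, robust quasi-likelihood fit, Benjamini-Hochberg adjustment over all tested genes). CPM values are scaled by TMM, standard errors come from the F statistic, and lengths, GC content and overlaps come from GENCODE 29. Members, lists and the naming rule were chosen with earlier results of these data known. The rule names the members, the called genes of a list (where over 8, the 4 with the smallest p in each direction), the 3 genes nearest to TIMP2 in pattern, and genes overlapping a member; some results under it are not reported here. MMP7, RECK, the marker genes, PLG, A2M, ATF3, BATF3, the weak family genes, the squamous genes and the genes nearest to MMP1 fall outside it and were named after their values were seen. Alternatives were other size factors, other filters, DESeq2 1.42.0, limma 3.58.1 voom, a replicate block, GC and length offsets (splines with 5 degrees of freedom) and each library left out. The edgeR step was checked on simulated data with few changed genes and the same dispersion for every gene. That check does not cover data in which most genes are called, or genes as variable as MMP1. Libraries of an arm differed beyond counting error (chi-square per degree of freedom 2.69 to 6.15), so none was merged.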

Additional observations from a re-analysis of the deposited data

How the results depend on the processing

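TIMP2, MMP24 and MEX3A kept their direction and call under all alternatives. With each library left out, the log2 fold change ran from -0.64 to -0.60 for TIMP2, from -0.53 to -0.43 for MMP24, from 0.18 to 0.21 for MMP14, from 0.00052 to 0.080 for MMP15, from -0.038 to 0.026 for TIMP1, from 0.42 to 0.65 for MMP2, from -1.49 to 0.12 for MMP1 and from -1.77 to -1.68 for MEX3A. The factors that fell then numbered 2 to 4. With GC and length offsets MMP14 was at -0.0024 and MMP15 at -0.22, and the cause was not tested. TIMP1 changed sign without a call with DESeq2 size factors (2.0e-05), when 1 CPM in 3 libraries was required (0.0046) and when only genes with known GC content were fitted (0.014, chosen after seeing the data). At that CPM requirement MMP1 and MMP2 were not tested.

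With the longest coding transcript as length, levels per kilobase in shMEX3A were 0.197 for MMP2, 77.4 for MMP14, 17.2 for MMP15, 252 for TIMP1 and 81.9 for TIMP2, and in shCtrl 0.133 for MMP2, 67.5 for MMP14, 253 for TIMP1 and 126 for TIMP2. The ratio of MMP14 to TIMP2 was then 0.946 in shMEX3A and 0.537 in shCtrl, that of MMP2 to TIMP2 0.00240 in shMEX3A, and that of summed metalloproteases to summed inhibitors 0.293 in shMEX3A and 0.233 in shCtrl.

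Over all tested genes the replicate numbers were not taken as pairs, since deviations of same-numbered libraries correlated at -0.031, 0.077 and -0.077. MMP1 had the same order of replicates in both arms, and so had S100A9 and KRT6A. How many of all tested genes share their order between the arms was not determined. The replicate block gave 5247 higher and 5504 lower genes, against 5336 and 5589 without it, and no member's call changed (MMP1 at -0.56, SE 0.29 against 0.95 without the block, adjusted p = 0.0949, edgeR quasi-likelihood test). For 32 other named genes, 473 values under other settings had the same call and 6 gained one (MMP7 and ATF3). Depth limits MMP3, MMP9 and TIMP3, each at 9 counts or fewer in every library.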
